A study of Mus musculus with 5 samples.

Results

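The genes described here are 9 surface genes of megakaryocytes and platelets, measured in bone marrow–derived macrophages (BMDMs) that had shared a culture with 4T1 breast cancer cells. They are *Itga2b*, *Itgb3*, *Gp1ba*, *Gp1bb*, *Gp5*, *Gp6*, *Gp9*, *Vwf*, and *Treml1*, and they were listed by symbol, with earlier results of these data known. All 9 had counts among the 17058 genes of the deposited RNA-Seq files, and all 9 were among the 12576 genes that passed the filter on low counts. The BMDMs came from Balb/c mice, weeks old per the study's methods, and were grown from bone marrow with M-CSF. They were then kept for 48 hours with cancer cells on the other side of a porous membrane, and the culture on the macrophage side was sequenced. In the WT group (n = 2 libraries) the cancer cells were WT 4T1, a mammary carcinoma line, and in the *Adam17*-/- group (n = 3) they were 4T1 cells edited to lack *Adam17*, which encodes a protease that sheds membrane proteins. The 3 *Adam17*-/- libraries carry the single knock-out designation 2.8, so an effect of the deleted gene and one of the line that carries the deletion cannot be told apart. The macrophages carried no edit in either group. Their own *Adam17* read 199 ± 1.51 CPM (counts scaled to library size with TMM factors, mean ± SD, n = 2) with WT cells and 159 ± 6.32 CPM (n = 3) with *Adam17*-/- cells. The groups did not overlap, and the log2 fold change was −0.32 (adjusted p = 0.0129, edgeR's quasi-likelihood test). The labels do not say that the libraries of a group came from separate mice or cultures, so p-values measure the spread between these samples, which may be technical.

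Platelets are shed by megakaryocytes, large polyploid cells of the bone marrow, and their surface receptors let them stick to an injured vessel wall and to each other. The GPIb-IX-V complex catches von Willebrand factor on exposed matrix, GPVI then binds collagen and signals, and the integrin αIIbβ3 takes up fibrinogen and links platelet to platelet. BMDM cultures start from whole marrow, where megakaryocytes and their progenitors also live, and M-CSF then favors macrophages. On platelets ADAM17 itself is known as the protease that cleaves GPIbα and GPV from the surface. In bulk RNA, fewer cells of a type and less RNA per cell cannot be told apart.

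The 5 libraries held 14658694 to 20788373 counts, and 3 counts, taken as the floor of detection, correspond to 0.157 to 0.197 CPM. All 9 genes were above that floor in every library. The gene under test with the least reads, *Gp6*, had 17 and 26 counts with WT cells and 22, 33, and 50 with *Adam17*-/- cells, whereas *Vwf* had at least 1243 counts in each library.

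All 9 genes had a positive fitted change in macrophages kept with *Adam17*-/- cells, with a median log2 fold change of 0.95 beside 0.01 over all genes tested. *Itga2b*, *Gp1bb*, and *Gp9* were called higher, with an adjusted p of 0.05 or less (edgeR's quasi-likelihood test, Benjamini-Hochberg) and a log2 fold change of 1 or more. These are 3 of 9 genes, beside 3.36% of all genes tested. *Itgb3*, *Gp1ba*, *Vwf*, and *Treml1* passed the adjusted p but not the fold limit, which brought the number past the adjusted p to 7 of 9, beside 14.9% of all genes. *Gp5* and *Gp6* passed neither limit, and 0 of 9 genes fell, beside 0.867% of all genes called lower and 16.8% lower by the adjusted p alone. The libraries of the groups did not overlap, with the *Adam17*-/- group above, for 7 of 9 genes and for 28.4% of all genes, and with that group below for 0 of 9 and 29.7%. The share of all genes called higher depended on level. When the genes tested were put in 4 sets of equal size by mean CPM, it was 10% in the lowest set, where *Gp6* and *Gp9* lay, and 2.45% in the next, which held *Gp1ba*, *Gp1bb*, and *Gp5*. It was 0.604% in the set with *Itga2b*, *Itgb3*, and *Treml1*, and 0.35% in the highest, with *Vwf*. By the adjusted p alone, the shares from the lowest set to the highest were 16.3%, 16.2%, 14.3%, and 12.7%.

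**Figure D1:**
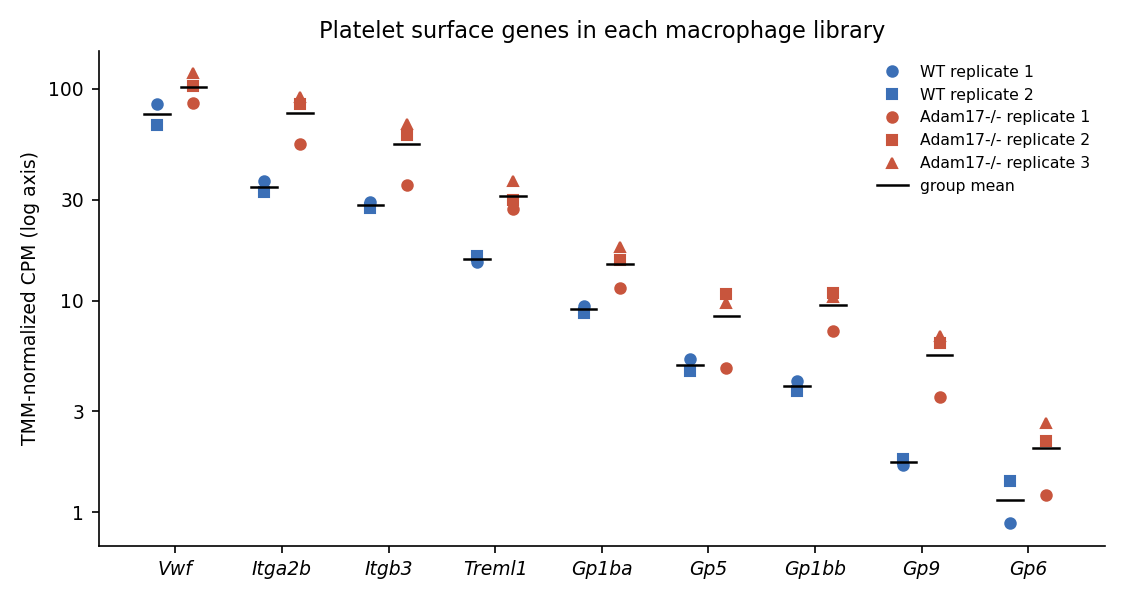
TMM-normalized CPM of the 9 genes in each of the 5 libraries, on a log axis, with WT coculture in blue, *Adam17*-/- coculture in red, and a bar at each group mean. *Vwf* had the highest CPM and *Gp6* the lowest, and the groups overlapped for *Gp5* and *Gp6*.

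Both chains of the fibrinogen receptor passed the adjusted p in the higher direction, and *Itga2b* was called. *Itga2b* encodes integrin αIIb (CD41), the subunit that marks the megakaryocyte lineage and also appears on early hematopoietic progenitors. Its gene spans chr11:102453297-102469883 on the minus strand of GRCm38.p6, with 30 exons in the matched transcript. It read 36.6 and 32.5 CPM with WT cells and 54.8, 84.9, and 91.6 CPM with *Adam17*-/- cells. Every *Adam17*-/- library was above both WT libraries, and the first of them was well below the other two. The means were 34.6 ± 2.91 CPM (SD, n = 2) and 77.1 ± 19.6 CPM (n = 3), a rise of 1.16 on the log2 scale (SE 0.193, 95% interval 0.72 to 1.59, adjusted p = 0.00266).

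*Itgb3* encodes integrin β3 (CD61), the partner of αIIb on platelets and of αv on macrophages and many other cells. It lies on the same chromosome at chr11:104608000-104670476, plus strand, with 15 exons. It read 29.3 and 27.5 CPM with WT cells and 35.4, 60.5, and 68.4 CPM with *Adam17*-/- cells. The groups were apart, although the first *Adam17*-/- library stood close to the WT libraries. The fitted log2 fold change was 0.95 (SE 0.230, interval 0.43 to 1.46, adjusted p = 0.0135), which is under the fold limit. Without the first *Adam17*-/- library, it was 1.2 and over the limit (adjusted p = 0.0022).

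Per transcript length, the αIIb subunit exceeded β3 in every library. The ratio of *Itga2b* to *Itgb3* in FPKM was 2.12 and 2.01 with WT cells and 2.64, 2.39, and 2.28 with *Adam17*-/- cells. The other β3 partner, *Itgav* (αv), did not pass the test, at 491 ± 107 CPM with WT cells and 447 ± 13.9 CPM with *Adam17*-/- cells (log2 fold change −0.13, adjusted p = 0.421). Relative to *Itgb3* in FPKM, *Itgav* stood at 11.6 and 16.9 with WT cells and at 10.2, 6.28, and 5.27 with *Adam17*-/- cells. So most of the mRNA for known β3 partners was that of αv in both groups, and the lowest ratios were those of the second and the third *Adam17*-/- libraries.

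The fitted changes of the 4 chains of the GPIb-IX-V complex ran from 0.72 to 1.67 on the log2 scale, and *Gp1bb* and *Gp9* were called higher. *Gp1ba* encodes GPIbα, the chain that binds von Willebrand factor, at chr11:70639102-70643986 on the plus strand with 2 exons. It read 9.42 and 8.77 CPM with WT cells and 11.4, 15.6, and 17.9 CPM with *Adam17*-/- cells. The groups did not overlap, and the log2 fold change was 0.72 (SE 0.183, interval 0.31 to 1.13, adjusted p = 0.0164). Leaving out the second or the third *Adam17*-/- library took the adjusted p over the threshold, to 0.0523 and 0.0562.

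*Gp1bb* encodes GPIbβ, which is disulfide-linked to GPIbα, at chr16:18620319-18622403, minus strand. It read 4.19 and 3.73 CPM with WT cells and 7.17, 10.9, and 10.4 CPM with *Adam17*-/- cells. Every *Adam17*-/- library was above both WT libraries. The log2 fold change was 1.26 (SE 0.209, interval 0.79 to 1.73, adjusted p = 0.00260), from 3.96 ± 0.320 CPM (n = 2) to 9.51 ± 2.04 CPM (n = 3). *Gp1bb* overlaps *Septin5*, a septin gene on the same strand, and its counts were not whole in 5 of 5 libraries, so reads were divided between transcripts by estimate. *Septin5* had fewer counts, 55 and 35 with WT cells and 55, 46, and 71 with *Adam17*-/- cells, with a log2 fold change of 0.45 that did not pass the test (adjusted p = 0.181).

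*Gp9* encodes the small GPIX chain that the complex needs to reach the surface, at chr6:87776131-87779786, plus strand. It read 1.67 and 1.79 CPM with WT cells and 3.50, 6.32, and 6.83 CPM with *Adam17*-/- cells. Even the lowest *Adam17*-/- library was 2.02 times the WT mean. At 1.67 (SE 0.308, interval 0.98 to 2.36, adjusted p = 0.00401), its log2 fold change was the largest of the 9, on 32 and 33 counts with WT cells and 64, 96, and 129 with *Adam17*-/- cells.

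*Gp5* encodes GPV, the chain most loosely tied to the complex and a substrate of thrombin, at chr16:30307685-30310781, minus strand. It read 5.29 and 4.65 CPM with WT cells and 4.82, 10.8, and 9.80 CPM with *Adam17*-/- cells. The first *Adam17*-/- library lay between the WT libraries, so the groups overlapped. The log2 fold change was 0.76 (SE 0.299, interval 0.09 to 1.43), with an adjusted p of 0.0790. Without that library it was 1.07 (adjusted p = 0.00813), so 1 library decided the call.

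The balance of the chains can be read only per length. With WT cells, *Gp1ba* stood at 1.52 and 1.58 times *Gp1bb* in FPKM, and with *Adam17*-/- cells at 1.07, 0.957, and 1.15 times. *Gp9* stood at 0.967 and 1.16 times *Gp1bb* with WT cells and at 1.18, 1.39, and 1.57 times with *Adam17*-/- cells, whereas *Gp5* stood at 1.06 and 1.04 and at 0.558, 0.822, and 0.778 times. Thus *Gp1ba* and *Gp5* were lower relative to *Gp1bb*, and *Gp9* higher, in every *Adam17*-/- library than in both WT libraries. These ratios were not tested.

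*Gp6* encodes GPVI, the collagen receptor that signals through the Fc receptor γ chain, at chr7:4362853-4397851, minus strand. It had the fewest reads of the 9 genes, at 0.890 and 1.41 CPM with WT cells and 1.2, 2.17, and 2.65 CPM with *Adam17*-/- cells. The groups overlapped. The log2 fold change was 0.80 with an interval of −0.06 to 1.66 (SE 0.384, adjusted p = 0.137), so at this depth neither no change nor a change of the size seen for *Itga2b* lay outside the interval. The γ chain itself (*Fcer1g*), which macrophages use with their Fc receptors, read 353 ± 13.1 and 311 ± 8.90 CPM (log2 fold change −0.18, adjusted p = 0.102).

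*Vwf* encodes von Willebrand factor, the ligand of GPIbα, which megakaryocytes store in α-granules and endothelial cells in Weibel-Palade bodies. It lies at chr6:125552948-125686679, plus strand, with 52 exons. It had the most reads of the 9 genes and the smallest change, at 84.6 and 67.3 CPM with WT cells and 85.4, 104, and 119 CPM with *Adam17*-/- cells. The groups met almost edge to edge, since the higher WT library and the lowest *Adam17*-/- library differed by less than the WT libraries did. The log2 fold change was 0.43 (SE 0.145, interval 0.11 to 0.76, adjusted p = 0.0456). The adjusted p passed the threshold only narrowly, and it was 0.123 without the second WT library and 0.1 or 0.128 without the second or the third *Adam17*-/- library.

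*Treml1* encodes TLT-1, a receptor that rests in platelet α-granules and comes to the surface on activation, at chr17:48359916-48367176, plus strand, in the Trem gene cluster. It read 15.2 and 16.3 CPM with WT cells and 27.1, 29.9, and 36.8 CPM with *Adam17*-/- cells. This was the tightest of the 9 comparisons, with an SE of 0.140 and a log2 fold change of 0.99 just under the fold limit (interval 0.67 to 1.30, adjusted p = 0.00131). In 8 of 13 alternative fits it was over the limit. Of its 4 quantified transcripts, one that RefSeq lists as noncoding took 77.3% and 66.0% of the counts with WT cells and 68.7%, 76.4%, and 56.5% with *Adam17*-/- cells. The main coding transcript took 21.9% and 22.9%, and 28.8%, 21.2%, and 41.4%, so the gene's counts were for the larger part not assigned to a coding form in any library. These shares are estimates among transcripts that share exons.

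**Figure D2:**
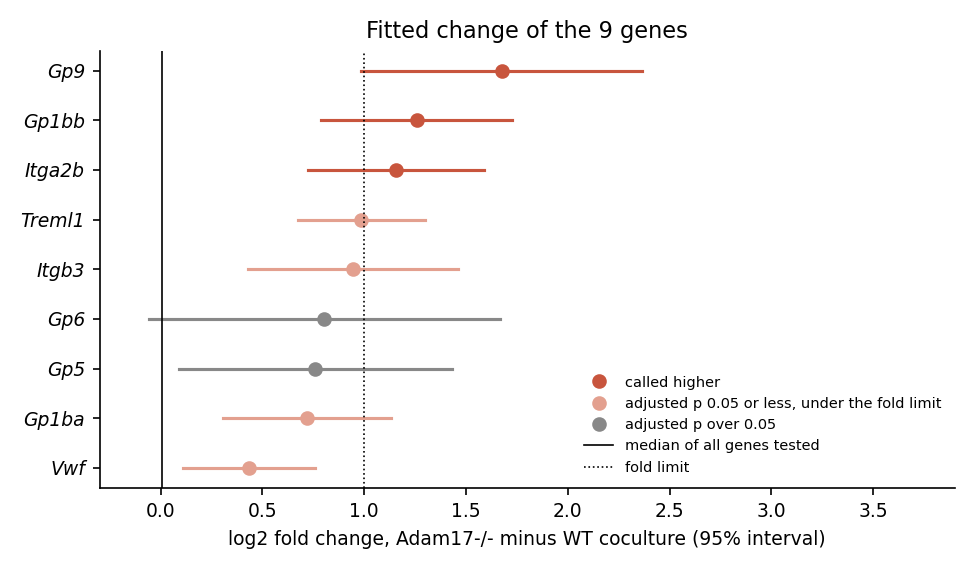
Fitted log2 fold change of each gene, *Adam17*-/- minus WT coculture, with its 95% interval (bar), the median of all genes tested (solid line), and the fold limit of 1 (dotted line). *Gp9*, *Gp1bb*, and *Itga2b* lay over the limit, and the interval of *Gp6* alone reached below 0.

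CPM does not allow genes to be ranked, because long transcripts give more reads. In FPKM, *Treml1* was the highest with WT cells (14.2 and 15.5), followed by *Itga2b* (9.98 and 9.27), *Vwf* (8.86 and 7.37), *Itgb3* (4.70 and 4.61), and *Gp1ba* (3.25 and 3.16). *Gp9* (2.07 and 2.31), *Gp5* (2.26 and 2.08), and *Gp1bb* (2.14 and 2.00) overlapped and cannot be ordered, and *Gp6* (0.75 and 1.25) was last. With *Adam17*-/- cells, *Treml1* (28.3 to 37.0) and *Itga2b* (17.1 to 28.1) again stood at the top and apart from the rest, with *Vwf* (10.2 to 14.0) after them. From *Vwf* down, each gene overlapped the next in this group. *Itgb3* ran from 6.46 to 12.4, *Gp9* from 4.95 to 9.52, *Gp1ba* from 4.50 to 6.95, *Gp1bb* from 4.21 to 6.34, *Gp5* from 2.35 to 5.21, and *Gp6* from 1.16 to 2.53. *Vwf*, with the highest CPM, thus came after *Treml1* and *Itga2b* per length, although the short noncoding transcript weighs in its FPKM.

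The first *Adam17*-/- library was the lowest of the 3 for 9 of 9 genes, beside 33.1% of all genes tested. The third was the highest for 7 of 9, beside 33.6% of all genes tested, with *Gp1bb* and *Gp5* highest in the second. The median ratio of the second to the first library was 1.55 and of the third to the first 1.67, whereas over all genes both medians were 1.00. The first library was also the lowest of the 3 for 21 of 27 tested genes of the other platelet receptors, 8 of 9 of the megakaryocyte cytoskeleton, and 11 of 13 of the macrophage list, beside 4 of 13 of the neutrophil list and 9 of 26 of the platelet signaling list. In the first library, *Gp9*, *Gp1bb*, *Treml1*, and *Itga2b* were still 2.02, 1.81, 1.72, and 1.59 times their WT means. *Gp1ba* and *Itgb3* were at 1.26 and 1.25 times, *Vwf* and *Gp6* at 1.13 and 1.05 times, and *Gp5* at 0.969 times. The total counts of that library, 17421992, lay between those of the other *Adam17*-/- libraries. When it was left out, 6 of 9 genes were called higher, *Itgb3*, *Gp5*, and *Treml1* being added.

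**Figure D3:**
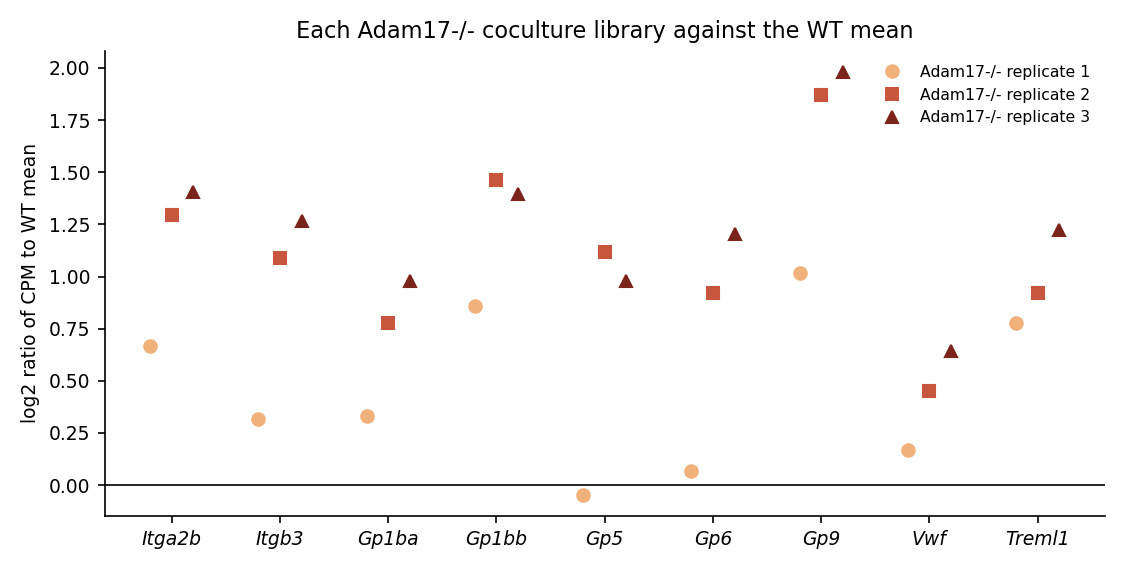
log2 ratio of each *Adam17*-/- library's CPM to the mean of the WT libraries, per gene, with 0 as the WT mean. The first *Adam17*-/- library (pale circles) was the lowest for all 9 genes and was below the WT mean for *Gp5*.

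The genes whose profile over the 5 libraries was most like that of *Itga2b* were taken by the Euclidean distance between log2 CPM profiles centered on their means, among 12575 other genes. They were *Mfsd2b* (distance 0.119), *Hip1r* (0.148), *Tnik* (0.165), *Gp1bb* (0.189), and *Tubb1* (0.197). MFSD2B is the sphingosine-1-phosphate exporter of red cells and platelets, and *Tubb1* encodes the β-tubulin of the platelet marginal band. *Mfsd2b* read 3.45 and 3.14 CPM with WT cells and 5.09, 7.96, and 9.48 CPM with *Adam17*-/- cells (log2 fold change 1.19, adjusted p = 0.00860). Among the other 8 surface genes, *Itgb3* ranked 17 and *Treml1* 41 by this distance, then *Gp1ba* 80, *Gp9* 120, *Gp5* 201, *Gp6* 494, and *Vwf* 706. With 5 libraries, a likeness of profiles is a description only.

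The DNA just upstream of the genes is shown because GATA and ETS factors are the known pair that drives megakaryocyte genes. Whether such motifs have a part in the values of these genes was not tested. The promoter table from RefSeq (GRCm38.p6) held 7 of the 9 genes, all but *Itgb3* and *Vwf*. The 250 bases before the start that the table uses were searched on both strands for a GATA motif (AGATAA or TGATAA or AGATAG or TGATAG) or an ETS motif (AGGAAG or CGGAAG), which do not overlap in these windows. That start lies inside the full RefSeq span given above for *Gp1ba*, *Gp6*, and *Gp9*, so that 20, 107, and 250 bases of their windows fall within the span. The *Gp9* window is therefore not shown, and that of *Gp6* is shown only outside the span. Capitals mark the matches, and each sequence reads 5′ to 3′ on the strand of the gene.
Gp1ba, chr11:70638872-70639121, plus strand: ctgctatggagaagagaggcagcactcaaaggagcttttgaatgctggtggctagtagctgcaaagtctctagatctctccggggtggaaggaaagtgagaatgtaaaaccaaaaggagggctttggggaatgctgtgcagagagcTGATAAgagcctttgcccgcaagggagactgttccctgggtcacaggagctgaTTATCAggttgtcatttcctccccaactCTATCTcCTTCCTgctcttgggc
Gp5, chr16:30310782-30311031, minus strand: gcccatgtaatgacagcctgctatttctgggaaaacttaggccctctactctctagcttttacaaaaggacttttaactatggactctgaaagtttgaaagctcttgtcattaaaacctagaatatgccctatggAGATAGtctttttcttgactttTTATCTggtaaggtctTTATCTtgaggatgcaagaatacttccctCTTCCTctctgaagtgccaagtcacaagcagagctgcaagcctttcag
Gp6, chr7:4397852-4397994, minus strand: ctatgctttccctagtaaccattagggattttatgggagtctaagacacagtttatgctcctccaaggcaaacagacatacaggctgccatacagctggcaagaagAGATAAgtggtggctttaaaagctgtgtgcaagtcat
Itga2b, chr11:102469884-102469942, minus strand, only the bases outside an exon of a longer transcript: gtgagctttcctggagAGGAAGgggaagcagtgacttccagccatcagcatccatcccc
A GATA match lay in 4 of 7 genes (*Gp1ba*, *Gp1bb*, *Gp5*, and *Gp6*), beside 26.5% of the 32851 windows in the table. An ETS match lay in 5 of 7 (*Itga2b*, *Gp1ba*, *Gp1bb*, *Gp5*, and *Gp9*), beside 39.2%, and both kinds in 3 of 7, beside 9.21%. The *Gp1bb* window lies over exons of *Septin5* and is not shown, and without it the counts are 3, 4, and 2 of 6. *Gp1ba* and *Gp5* held 3 GATA matches each, which 1.35% of all windows reach. *Treml1* held none of these letters in its window.

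The neighbors of the 9 genes did not share one direction. Within 10000 bases, *Eno3*, the muscle enolase gene 9139 bases from *Gp1ba*, was called higher, from 3.54 ± 0.0462 to 8.82 ± 1.07 CPM (log2 fold change 1.32, adjusted p = 0.000863). It overlaps *Pfn1* by 3675 bases on the opposite strand, so reads of the overlap could not be told apart. Between *Gp1ba* and both lie *Slc25a11*, 33 bases from *Gp1ba* (log2 fold change −0.08, adjusted p = 0.453), and *Rnf167* (0.36, adjusted p = 0.0297). *Pfn1* encodes the actin-binding protein profilin, and 7858 bases from *Gp1ba* it was lower, at −0.70 (adjusted p = 0.00172). *Trem2*, a macrophage receptor gene 7640 bases from *Treml1*, did not pass the test (384 ± 30.9 and 362 ± 12.4 CPM, log2 fold change −0.08, adjusted p = 0.470). The same was so of *Gpatch8*, 6028 bases from *Itga2b* (−0.08, adjusted p = 0.474), and *Atp13a3*, 1642 bases from *Gp5* (0.13, adjusted p = 0.598), whereas *Rab43*, 9067 bases from *Gp9*, was lower at −0.36 (adjusted p = 0.00849).

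The other receptors of the platelet surface moved in both directions. Of 31 genes on that list, 27 were tested, 8 passed the adjusted p higher and 4 lower, and the median log2 fold change was 0.27. In all 5 were called higher and 0 lower, and those called higher included *Cd226* (1.82, adjusted p = 0.00679), *Clec1b* (1.73, adjusted p = 0.00321), *F2r* (1.26, adjusted p = 0.00652), and *Esam* (1.16, adjusted p = 0.0101). *Clec1b* encodes CLEC-2, the podoplanin receptor, and *F2r* the thrombin receptor PAR1. *Clec1b* read 2.35 and 1.35 CPM with WT cells and 4.60, 8.03, and 6.09 CPM with *Adam17*-/- cells, so the groups did not overlap. *F2rl2*, which encodes PAR3, a thrombin receptor of mouse platelets, passed the adjusted p at 0.93 (adjusted p = 0.00705). *Selp*, the P-selectin gene shared by platelets and endothelium, was lower with *Adam17*-/- cells, at 6.86 ± 0.0121 and 4.03 ± 0.619 CPM (−0.76, adjusted p = 0.00952), as was *Ptgir*, the prostacyclin receptor gene (−0.96, adjusted p = 0.00100). Without the first *Adam17*-/- library 9 genes of the list were called higher, and with limma on log2(FPKM + 1) 2 were. Without the third *Adam17*-/- library, or with a replicate block, 1 gene of the list was called lower.

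Of 12 granule genes, all were tested, 5 passed the adjusted p higher and 4 lower, and the median was 0.10. *Clu* (clusterin, 1.73, adjusted p = 0.000485) and *Rab27b*, a GTPase of granule secretion (1.31, adjusted p = 0.00870), were called higher. *Pf4* (platelet factor 4) and *Ppbp* (pro-platelet basic protein), the classic platelet chemokine genes, were called lower, by 1.06 (adjusted p = 0.000174) and 1.55 (adjusted p = 0.000174) on the log2 scale. With library-size scaling or either limma fit, 1 gene of the list was called lower, and with limma on log2(FPKM + 1) 1 was called higher. *Pf4*, which macrophages are also known to express, read 2041 ± 73.3 CPM with WT cells and 975 ± 51.1 CPM with *Adam17*-/- cells. *Mmrn1*, which encodes the α-granule protein multimerin 1, read 5.91 and 6.60 CPM with WT cells and 7.44, 13, and 13.6 CPM with *Adam17*-/- cells (0.85, adjusted p = 0.0253).

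Of 26 signaling genes below the receptors, 3 passed the adjusted p higher and 15 lower (median −0.27). *Lat*, the adaptor below GPVI, was called higher (1.13, adjusted p = 0.0269), and *Dok2*, an inhibitory adaptor, was called lower (−1.03, adjusted p = 0.000430). The 2 with the most reads, *Tln1* (talin, which activates integrins) and *Flna* (filamin, which holds GPIbα to actin), were lower at −0.74 (adjusted p = 0.000598) and −0.69 (adjusted p = 0.000650). The higher call was lost without the second WT library or without the second or the third *Adam17*-/- library, and the lower call without the first WT or the second *Adam17*-/- library. Of 9 cytoskeleton genes, 2 passed higher and 5 lower (median −0.27). *Tubb1* (1.12, adjusted p = 0.0245) and *Pdlim1* (1.12, adjusted p = 0.0157) were called higher, and of those with the most reads *Myh9* (nonmuscle myosin) had −0.54 (adjusted p = 0.00153) and *Diaph1* (a formin) −0.32 (adjusted p = 0.0170). The calls of this list came to 1 without the first WT or the second *Adam17*-/- library and to 0 without the third *Adam17*-/- library.

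Of 20 transcription factor genes of the lineage, 19 were tested, 3 passed higher and 2 lower, and the median was −0.09. *Gfi1b*, a repressor needed in megakaryocytes and red cells, was called higher (0.837 and 0.379 CPM with WT cells, 1.48, 1.97, and 1.85 CPM with *Adam17*-/- cells, 1.52, adjusted p = 0.0149), a call lost without the second WT library, whereas 3 genes of the list were called without the first WT or the first *Adam17*-/- library. *Gata1*, the central factor of both lineages, read 2.25 and 1.24 CPM with WT cells and 2.35, 3.68, and 4.29 CPM with *Adam17*-/- cells (0.97, adjusted p = 0.0485). *Ldb1* and *Runx1*, with the most reads, did not pass the test (−0.11, adjusted p = 0.441, and −0.12, adjusted p = 0.269), nor did the ETS gene *Fli1* (−0.26, adjusted p = 0.0526).

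In these 5 lists the direction went with the level. At a mean of 10 CPM, a limit chosen after the values were seen, the lists split into 24 tested genes below and 69 at or above. Below it, 13 of 24 passed the adjusted p higher and 1 lower (*Selp*), with a median log2 fold change of 0.95. Of all tested genes below the limit, 16.5% passed higher and 4.38% lower, with a median of 0.22. At or above it, 8 of 69 passed higher and 29 lower, with a median of −0.18. Of all tested genes there, 14.1% passed higher and 22.8% lower, with a median of −0.06. *Itga2b*, *Itgb3*, *Vwf*, *Treml1*, and *Gp1ba*, at means over that limit, were thus on the other side from most genes of the lists at their level.

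**Figure D4:**
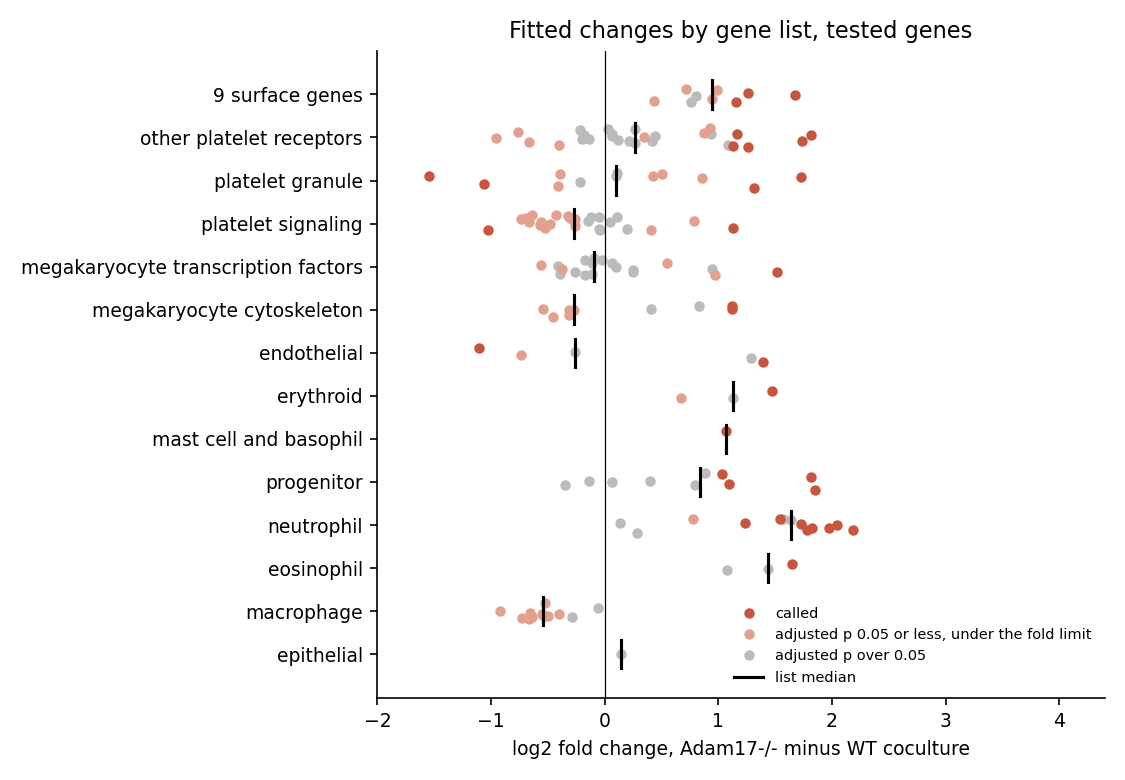
Fitted log2 fold change (*Adam17*-/- minus WT coculture) of each tested gene, by list, with called genes in dark red, genes past the adjusted p alone in pale red, others in gray, and a bar at each list's median. The 9 surface genes all lay right of 0, whereas the other 5 megakaryocyte and platelet lists had genes on both sides.

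Markers of other cells that a marrow culture could hold also differed between the groups. The 13 macrophage genes summed to 31420 and 30180 CPM with WT cells and to 19630 to 21960 CPM with *Adam17*-/- cells, and 11 of 13 passed the adjusted p lower (median −0.54). Those with the most reads, *Lyz2* (lysozyme) and *Itgam* (CD11b), were at −0.65 (adjusted p = 0.00148) and −0.64 (adjusted p = 0.00173). The 13 neutrophil genes summed to 1323 and 1364 CPM with WT cells and to 2166 to 2441 CPM with *Adam17*-/- cells, and 8 of 13 were called higher (*Ltf*, *Camp*, *Ngp*, *Ly6g*, *S100a8*, *S100a9*, *Elane*, and *Retnlg*, at 1.23 to 2.18). Much of that sum was *Mmp8*, which did not pass the test (0.14, adjusted p = 0.318). Without *Mmp8* the sums were 410.5 and 337 CPM with WT cells and 1265, 1342, and 1164 CPM with *Adam17*-/- cells. The 9 surface genes summed to 187 and 164 CPM with WT cells and to 231, 325, and 363 CPM with *Adam17*-/- cells. Of 10 progenitor genes, *Hlf* (1.85), *Myb* (1.82), *Kit* (1.10), and *Slamf1* (1.03) were called higher, with adjusted p of 0.0288, 0.0193, 0.0471, and 0.0275. The calls came to 1 without the second WT library or without the second or the third *Adam17*-/- library. These 4 genes summed to 4.08 and 2.76 CPM with WT cells and to 7.55, 8.88, and 9.11 CPM with *Adam17*-/- cells. The whole list, most of it *Ly6a* (0.06, adjusted p = 0.617), summed to 164 and 140 CPM and to 151, 155, and 173 CPM. What part these markers have in the values of the surface genes was not tested.

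Of 14 endothelial genes, 8 were at or under 3 counts in every library (*Cldn5*, *Emcn*, *Plvap*, and *Tek* among them) and 5 were tested. *Cdh5* (VE-cadherin) was called lower, at 1.11 ± 0.350 and 0.516 ± 0.0205 CPM (−1.10, adjusted p = 0.0484), *Flt1* was called higher (1.40, adjusted p = 0.0234), and the 2 with the most reads, *Kdr* and *Tie1*, had −0.74 (adjusted p = 0.00265) and −0.26 (adjusted p = 0.212). Among those of the 13 alternative fits that kept both WT libraries, 0 genes of the list were called lower. The higher call was lost without the second or the third *Adam17*-/- library and with both limma fits. The list summed to 86.2 and 72.7 CPM with WT cells and to 44.4 to 55.9 CPM with *Adam17*-/- cells, most of it *Kdr*. Without *Kdr* it summed to 9.16 and 8.77 CPM and to 8.21, 9.54, and 10.1 CPM. Of 12 erythroid genes 6 were at or under the floor throughout, *Slc4a1* among them, 3 were tested, and *Hba-a1*, whose reads can be shared with *Hba-a2*, was called higher (1.47, adjusted p = 0.0130), though not without the second WT library. *Ermap* had 0.67 (adjusted p = 0.0200), and the list summed to 6.18 and 5.41 CPM with WT cells and to 10.3 to 10.5 CPM with *Adam17*-/- cells. Of 11 mast cell and basophil genes 8 were at or under the floor, and *Hdc* alone was tested (1.07, adjusted p = 0.00743, sums of 4.49 to 7.33 and 10.9 to 16.4 CPM), while *Prss34*, next in reads, reached 1.58 CPM in 1 *Adam17*-/- library. The call of *Hdc* was lost without the second WT or the second *Adam17*-/- library. Of 6 eosinophil genes 3 were tested and *Siglecf* was called higher (1.65, adjusted p = 0.000550), *Prg2* had 1.08 (adjusted p = 0.0953), with sums of 4.93 to 6.80 and 13.9 to 19.1 CPM. Of 10 epithelial genes, as 4T1 cells would bring, 8 were at or under the floor and *Cdh1* alone was tested (0.14, adjusted p = 0.422, sums of 11 to 12.7 and 12 to 13.9 CPM), *Krt18* being next in reads at 0.318 ± 0.0677 and 0.361 ± 0.0664 CPM.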

How the data were processed

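RNA-Seq libraries of 5 BMDM samples were compared, 2 cocultured with WT and 3 with *Adam17*-/- 4T1 cells, grouped by their labels. The authors sequenced cDNA on a BGISEQ platform and aligned reads to GRCm38 with HISAT and Bowtie2. The submitters' processing notes also name RSEM and DESeq2, and versions are not given in the sources used here. For each transcript and library the authors deposited an expected count, which is not normalized, and an FPKM, scaled to length and library size. The lowest FPKM listed was 0.01, and transcripts not listed were taken as 0. The stated library steps do not mark strand, so reads of genes overlapping on opposite strands could not be told apart.

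The transcripts' expected counts were added up for each gene and rounded. The test was edgeR's quasi-likelihood test (edgeR 4.0.16, R 4.3.3) with TMM factors and the filterByExpr filter, no covariates, and Benjamini-Hochberg adjustment over all 12576 genes. The gene sums were not whole for 13.5% to 14.4% of genes with a count. FPKM was used for levels between genes and, on a log2 scale, for limma 3.58.1. The other alternatives were DESeq2 1.42.0, upper-quartile or library-size scaling, no filter, at least 10 counts in every library, no fold limit, a replicate block, and each library left out. Coordinates and symbols came from RefSeq annotation of GRCm38.p6, which named 17015 of the 17058 gene IDs.

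The 9 genes, the 13 further lists, and the tests were chosen with earlier results of these data known. Named genes were the 9, *Adam17*, genes within 10000 bases, the 5 nearest to *Itga2b* in profile, and, from each list, those called and, under 3 calls, the 2 with the most reads. *Itgav*, *Fcer1g*, *F2rl2*, *Selp*, *Ptgir*, *Mmp8*, *Ly6a*, *Mmrn1*, *Gata1*, *Fli1*, and the endothelial and erythroid genes at the floor were added after their values were seen. The list sums without *Kdr* or *Mmp8* and over the called progenitor genes were also added then. Values of some listed genes are not reported here.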

Additional observations from a re-analysis of the deposited data

How the results depend on the processing

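The fitted change of all 9 surface genes stayed positive in the 13 alternative fits, and the fitted change of none of the 9 turned direction. *Gp1bb* and *Gp9* were called higher in 13 of 13, *Itga2b* in 12, *Treml1* in 8, and *Itgb3* in 4. *Gp1ba* passed the adjusted p in 11, *Vwf* in 9, and *Gp5* in 4, while *Gp6* never passed an adjusted p of 0.05 (0.0521 to 0.416). The number of the 9 called higher, 3 as reported, was 5 with upper-quartile scaling, 5 with library size only, 5 with limma on log2(FPKM + 0.1), 7 with no fold limit, and 3 to 6 with 1 library left out (6 without the first *Adam17*-/- library). Over all genes, 422 higher became 639 with library size only, 120 with limma on log2(FPKM + 1), and 1869 with no fold limit. The 109 lower became 57, 30 (51 with a pseudocount of 0.1), and 2114 under the same settings, and 77 to 176 with 1 library left out (176 without the second WT library). With library size only or limma at 0.1, the share of calls that were higher was 91.8% or 90.7%, against 79.5%, and with no fold limit it was 46.9%, so that lower calls were the more frequent. Under the first pair the median of all genes moved to 0.16 or 0.15. In the other lists, the calls of transcription factors, cytoskeleton, progenitor, and endothelial genes, of *Lat*, and of *Hdc* were all lost with limma on log2(FPKM + 1), and that of *Cdh5* also with each other tool, scaling, and filter tried. The calls of the cytoskeleton list were also lost with the replicate block, that of *Gfi1b* with at least 10 counts in every library, and that of *Dok2* with upper-quartile or library-size scaling and both limma fits. The progenitor genes *Hlf* and *Myb* had 2 and 6 counts in the second WT library, so they too were outside the fit with at least 10 counts in every library. Without the first *Adam17*-/- library, 2 genes each of the erythroid, eosinophil, and signaling lists were called higher, and without the second WT library 1 macrophage gene was called lower. The causes of these differences were not tested.

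Replicate numbers are shared between the groups, and the labels do not say whether same-numbered libraries belong together. Their deviations from the group means had r = -0.124 and -0.0501 for the numbers in both groups. With 2 WT libraries, whose deviations mirror each other, these values cannot decide it. With a replicate block, 350 genes were higher and 122 lower, and 2 of the 9 were called, since *Itga2b* came to 0.98 (adjusted p = 0.000578). The third replicate number exists only in the *Adam17*-/- group. In this fit that library therefore had a block to itself and added nothing to the difference between the groups. *Vwf* no longer passed the adjusted p (0.181).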
